A study of Mus musculus with 8 samples.

Results

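The LIM homeobox genes give newborn neurons of the spinal cord, hindbrain and midbrain their class. Of the 55078 gene symbols in the deposited table, 10 were taken by name: the LIM homeobox genes Lhx1, Lhx3, Lhx4, Lhx5, Lhx9, Isl1, Isl2, Lmx1a and Lmx1b, and the LIM-only gene Lmo1. All 10 were found, each as a single entry. The study sequenced messenger RNA of the mouse embryonic stem cell line 46C, which carries a green fluorescent reporter in the neural gene Sox1, and of cells of that line labelled as lacking Dip2c. Its title asks what the deletion does to neural differentiation. The groups were WT and KO at day 0 and day 4 of a KSR series, and WT and KO at day 0 and day 6 of an N2B27 series, with 1 library each. Day 0 cells grew in stem cell medium without induction, and KSR or N2B27 medium was given to induce neural fate. All 8 libraries share the 46C background. The labels do not say how many clones the KO cells came from. Dip2c itself was read in all 8 libraries, at 2.74 to 5.78 FPKM with the label WT and 2.91 to 4.43 FPKM with the label KO, and the Y-linked gene Eif2s3y was listed at 0 in all KO-labelled libraries only. The title and the description of 4 samples disagree, both KO libraries of the KSR series among them, and titles were followed. Every library is therefore named here by its label, and each direction is one between labels.

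LIM homeodomain proteins pair a DNA-binding homeodomain with zinc-binding LIM domains. The LIM domains bind the cofactor Ldb1, which joins several of these proteins into one complex, so the set of LIM proteins in a cell decides which complex forms. In the embryonic spinal cord Isl1 with Lhx3 marks motor neurons, Lhx3 without Isl1 marks ventral interneurons, Lhx1 and Lhx5 mark several interneuron classes, and Lhx9 marks dorsal commissural neurons. Lmx1a serves the roof plate and the midbrain dopamine lineage, and Lmx1b the dopamine, serotonin and dorsal horn neurons. Lmo1 has LIM domains without a homeodomain and competes for Ldb1.

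Levels are FPKM, fragments per kilobase of transcript scaled to library depth, as the authors deposited them. The lowest values of genes with a single annotated transcript fell on regular steps, and the first step put the depth at 12.4 to 14.6 fragments per FPKM and kilobase of transcript. From that step and the longest annotated transcript, the number of fragments behind each level was estimated, with an exact Poisson 95% interval that covers counting error only. Where a shorter transcript was in use, the fragments were fewer and the interval wider than given. The 10 genes were low. At day 0 their FPKM summed to 2.86 to 5.40 per library, and in the differentiated libraries to 11.6 to 41.9. Only 6 of the 10 reached 1 FPKM in at least 2 libraries and could be tested (Lhx1, Lhx5, Lhx9, Isl1, Lmx1b and Lmo1). The other 4, Lhx3, Lhx4, Isl2 and Lmx1a, are given by their levels alone. Stem cell markers fixed as a list (Nanog, Pou5f1, Esrrb, Zfp42, Klf4 and Tfcp2l1) summed to 1748 to 2097 FPKM at day 0 and to 15.2 to 118.6 in differentiated libraries, and the neural progenitor markers Sox1, Pax6, Nes, Sox3, Fabp7 and Hes5 to 6.55 to 11.7 and 303 to 762, in the direction of the labelled stages. Of the 6 neuron markers named below, Stmn2 alone had 69.7 to 115.4 FPKM at day 0, and the other 5 together 1.27 to 1.80.

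The promoters of the 5 members that passed a test below (Lhx1, Isl1 and Lmx1b between stages, Lhx9 and Lmo1 between media) are shown as the start regions of the genes for which a change passed the test. Each runs from 250 bases before to 50 bases after a start site of RefSeq (build GRCm38.p6), 5′ to 3′ on the strand of the gene. Capitals mark CANNTG, the E-box letters that proneural bHLH proteins such as Neurog2 can bind, and TAATTA, a core read by homeodomains. Both motifs read the same on both strands, and the marked sites do not overlap. The table has a second window for Lmo1, shifted along the same start region, and the start given for Lmx1b lies upstream of the GENCODE gene. The start given for Lhx9 lies inside the GENCODE gene (chr1:138825186-138848577), downstream of its outermost start. Of the 10 genes 9 had an entry. Lhx1 lies at chr11:84525485-84525784 (minus strand), Isl1 at chr13:116309639-116309938 (minus), Lmx1b at chr2:33641049-33641348 (minus), Lhx9 at chr1:138842395-138842694 (minus) and Lmo1 at chr7:109175158-109175457 (minus).
Lhx1: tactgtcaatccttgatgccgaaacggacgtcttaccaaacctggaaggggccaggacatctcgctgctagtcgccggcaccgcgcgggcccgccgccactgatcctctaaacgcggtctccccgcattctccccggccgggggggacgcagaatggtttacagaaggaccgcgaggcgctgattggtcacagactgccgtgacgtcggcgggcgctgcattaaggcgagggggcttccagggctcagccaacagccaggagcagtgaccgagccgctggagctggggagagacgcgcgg
Isl1: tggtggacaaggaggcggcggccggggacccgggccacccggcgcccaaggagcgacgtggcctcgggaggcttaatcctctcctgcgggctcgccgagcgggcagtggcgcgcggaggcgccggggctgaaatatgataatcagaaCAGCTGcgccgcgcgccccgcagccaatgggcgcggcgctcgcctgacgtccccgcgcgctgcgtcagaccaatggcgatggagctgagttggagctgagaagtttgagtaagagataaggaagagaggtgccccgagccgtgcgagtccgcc
Lmx1b: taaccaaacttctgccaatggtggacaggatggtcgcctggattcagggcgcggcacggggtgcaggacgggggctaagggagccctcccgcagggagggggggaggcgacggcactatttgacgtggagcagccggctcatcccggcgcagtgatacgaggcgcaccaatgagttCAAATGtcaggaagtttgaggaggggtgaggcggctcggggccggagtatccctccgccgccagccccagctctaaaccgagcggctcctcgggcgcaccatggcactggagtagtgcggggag
Lhx9: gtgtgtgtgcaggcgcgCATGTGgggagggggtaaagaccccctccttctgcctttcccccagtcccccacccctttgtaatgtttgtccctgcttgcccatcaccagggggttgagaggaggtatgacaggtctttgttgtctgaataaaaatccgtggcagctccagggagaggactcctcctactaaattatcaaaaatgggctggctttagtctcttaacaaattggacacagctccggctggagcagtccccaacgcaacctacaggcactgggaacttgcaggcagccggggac
Lmo1: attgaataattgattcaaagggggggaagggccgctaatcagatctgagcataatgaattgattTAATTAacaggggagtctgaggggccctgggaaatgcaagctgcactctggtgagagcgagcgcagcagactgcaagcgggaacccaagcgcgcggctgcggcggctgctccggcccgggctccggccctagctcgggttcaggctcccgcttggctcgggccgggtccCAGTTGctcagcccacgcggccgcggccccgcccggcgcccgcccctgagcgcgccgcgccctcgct

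The windows of Isl1, Lmx1b, Lhx9 and Lmo1 hold 1 CANNTG each, in capitals above, and that of Lhx1 holds 0. Such letters are common: 72.3% of the 32851 promoters of the same length hold at least 1. TAATTA stands in the window of Lmo1 alone among these 5 and in 5.29% of all promoters. The windows of Lhx1, Isl1, Lmx1b and Lmo1 hold 31, 37, 24 and 29 CG pairs against a median of 7 over all promoters. That of Lhx9, at a start inside the gene, holds 6. These matches describe letters and say nothing of which protein was bound.

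The motor neuron genes come first. Isl1 (ENSMUSG00000042258.13, chr13:116298281-116309689 of GRCm38/mm10), the first LIM gene of postmitotic motor neurons, had 0.0312 FPKM in the WT and 0.223 in the KO library at KSR day 0, 1.31 and 1.87 at KSR day 4, 0.0675 and 0.296 at N2B27 day 0, and 2.94 and 0.286 at N2B27 day 6. All differentiated libraries but the KO library of N2B27 lay above every day 0 library, and that KO library stayed at the level of its own day 0. Its paralogue Isl2 (chr9:55538672-55546180) had 0.181 and 0.190 FPKM at KSR day 0, 0.208 and 0.480 at KSR day 4, 0.154 and 0.0763 at N2B27 day 0, and 0.324 and 0.178 at N2B27 day 6 (WT, then KO). Isl2 thus stayed under 0.5 FPKM throughout, on 2.07 to 11.5 estimated fragments per library, and day 0 and differentiated libraries overlapped. Lhx3 (chr2:26200212-26208289), the partner of Isl1 in motor neurons, had 0.0819 and 0.210 FPKM at KSR day 0, 0.447 and 0.610 at KSR day 4, 0.189 and 0.136 at N2B27 day 0, and 0.542 and 0.107 at N2B27 day 6. As with Isl1, 3 differentiated libraries of Lhx3 lay above all day 0 libraries and the KO library of N2B27 day 6 lay among them. Lhx4 (chr1:155698031-155751684), the paralogue of Lhx3, had 0.0134 FPKM in the WT library and 0 in the KO library at KSR day 0, 0.712 and 0.463 at KSR day 4, 0.0124 and 0 at N2B27 day 0, and 0.274 and 0.111 at N2B27 day 6. All 4 differentiated libraries lay above all 4 day 0 libraries, where Lhx4 rested on at most 1 fragment, and both KSR libraries above both N2B27 libraries.

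Among the interneuron genes, Lhx1 (ENSMUSG00000018698.15, chr11:84518284-84525535) was listed at 0 in 3 of the 4 day 0 libraries, where a count of 0 allows up to 0.0532 to 0.0631 FPKM (3 fragments per library, a one-sided limit, with 0.0655 to 0.0775 as the upper ends of the two-sided intervals plotted), and had 0.0196 FPKM, about 1 fragment, in the WT library of KSR day 0. It reached 0.979 FPKM in the WT and 1.20 in the KO library at KSR day 4, and 6.66 and 0.507 at N2B27 day 6. Every differentiated library was above day 0, and the WT library of N2B27 day 6 stood far above the other 3. Lhx5 (ENSMUSG00000029595.9, chr5:120431699-120441223), which acts beside Lhx1 in the same interneuron classes, had 0.261 and 0.0596 FPKM at KSR day 0, 1.34 and 3.27 at KSR day 4, 0 and 0.0501 at N2B27 day 0, and 4.91 and 1.07 at N2B27 day 6 (WT, then KO). Differentiated and day 0 libraries of Lhx5 did not overlap, and the WT library was the higher one in N2B27 and the lower one in KSR. Lhx9 (ENSMUSG00000019230.14, chr1:138825186-138848577) had 0 and 0.0802 FPKM at KSR day 0, 2.06 and 2.12 at KSR day 4, 0 and 0.0759 at N2B27 day 0, and 0.401 and 0.0937 at N2B27 day 6. Its level was thus high in KSR alone, where the 2 labels lay within each other's counting intervals (1.73 to 2.43 and 1.78 to 2.51 FPKM).

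Lmx1b and Lmx1a, the pair of the roof plate and of dopamine and serotonin neurons, had their highest levels at N2B27 day 6. Lmx1b (ENSMUSG00000038765.13, chr2:33560965-33640511) had 0.393 FPKM in the WT and 2.06 in the KO library at KSR day 0, 2.28 and 2.79 at KSR day 4, 1.33 and 0.626 at N2B27 day 0, and 10.4 and 4.54 at N2B27 day 6. It was the only LIM homeobox gene of the 9 above 1 FPKM in any day 0 library, and the 2 day 0 series ranked the labels in opposite order. Lmx1a (chr1:167689237-167848741) had 0 and 0.0246 FPKM at KSR day 0, 0.0664 and 0.0901 at KSR day 4, 0.0444 and 0.0622 at N2B27 day 0, and 1.03 and 0.531 at N2B27 day 6. Lmx1a rested on at most 3.88 estimated fragments outside N2B27 day 6 and on 47.5 (WT) and 24.5 (KO) there. Lmo1 (ENSMUSG00000036111.8, chr7:109138572-109175207), the LIM-only gene, had 1.88 and 0.669 FPKM at KSR day 0, 2.96 and 1.65 at KSR day 4, 3.60 and 2.48 at N2B27 day 0, and 14.4 and 4.22 at N2B27 day 6. Lmo1 was present in stem cells already, and the WT library was the higher one in each of the 4 pairs. Genes annotated on the opposite strand overlap Lhx3, Lhx5, Isl2, Lmx1b and Lmo1, and the highest of them in any library had 0.370 FPKM (Gm27199, over Lhx5). The sources used here do not state whether fragments were counted by strand.

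**Figure D1:**
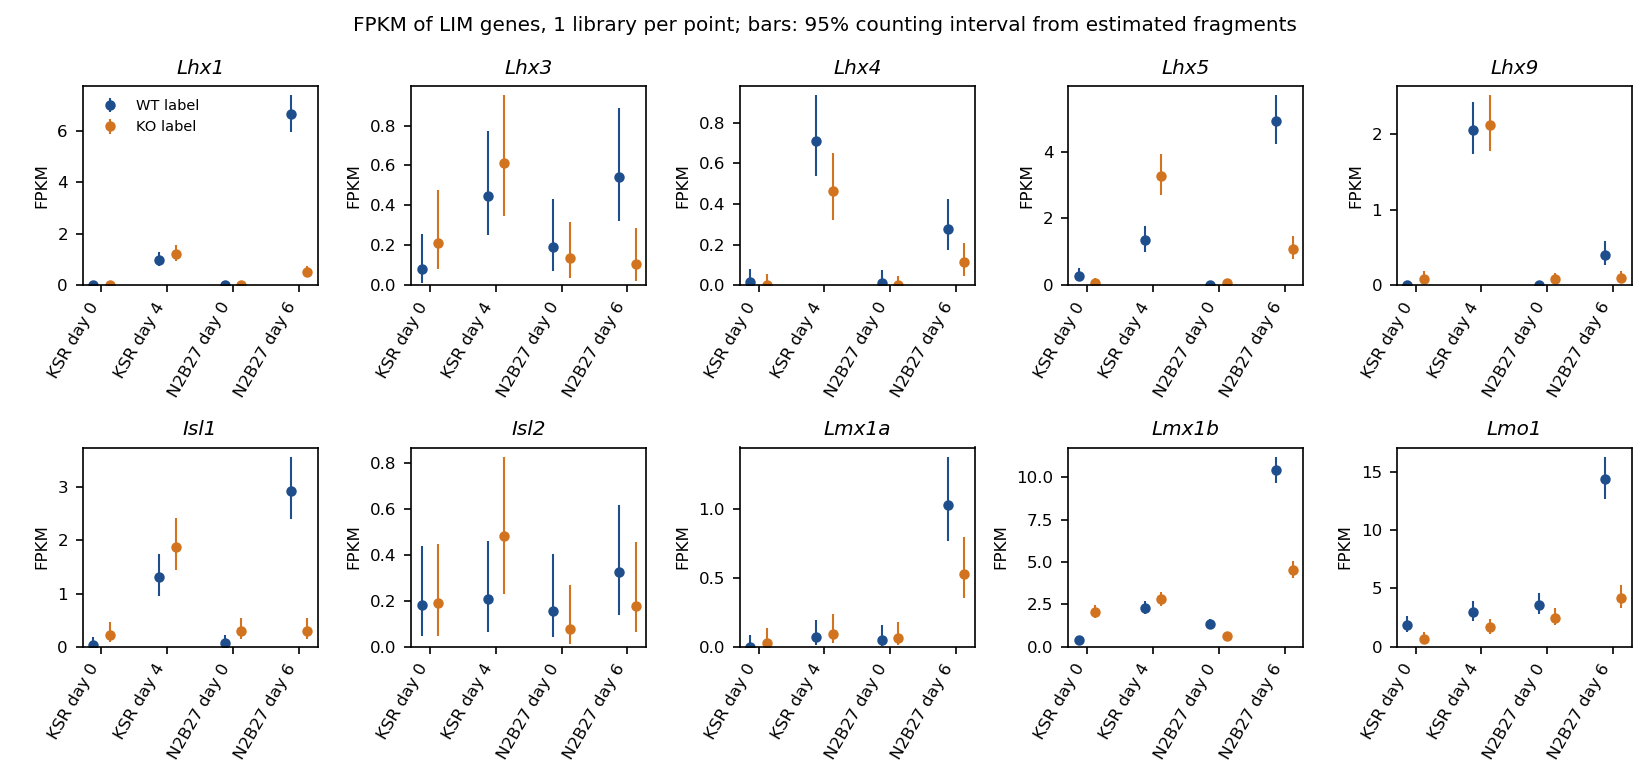
FPKM of the 10 genes (linear axes from 0, a scale per panel) in the 4 conditions, WT label in blue and KO label in orange. Each point is 1 library and each bar the 95% counting interval from estimated fragments. The WT library of N2B27 day 6 is the highest for Lhx1 (6.66 FPKM), Lhx5, Isl1, Lmx1a, Lmx1b and Lmo1 (14.4 FPKM), and both KSR day 4 libraries are the highest for Lhx9 and Lhx4.

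What induction did to these genes was tested within each label, with the KSR and the N2B27 pair as the 2 replicates (limma on log2 of FPKM plus 1, Benjamini-Hochberg adjustment over 15965 genes). Both labels were fitted together over all 8 libraries. Each standard error therefore comes from a spread shared by the WT and KO pairs, not from 1 label. In WT-labelled cells Lhx1, Isl1 and Lmx1b rose. Mean Lhx1 went from 0.00981 to 3.82 FPKM (1.95 ± 0.52 log2, standard error, n = 2 pairs; limma adjusted p = 0.0407), Isl1 from 0.0494 to 2.12 (1.52 ± 0.41; limma adjusted p = 0.0426) and Lmx1b from 0.861 to 6.35 (1.76 ± 0.46; limma adjusted p = 0.0396). These 3 of the 6 tested stand beside a background of 17% of all genes called higher and 13.2% called lower. Lhx1, Lhx5, Lhx9 and Isl1 reached 1 FPKM in differentiated libraries only, so the filter admitted them through their high group. The number of calls against that background therefore cannot show that the members rise more often than other genes. Lhx5 had 1.73 ± 0.50 (adjusted p = 0.0509), Lmo1 1.10 ± 0.37 (adjusted p = 0.0752) and Lhx9 1.05 ± 0.49 (adjusted p = 0.154), and these did not pass in limma, although each was higher in both pairs. On this scale the changes of genes near 0 at day 0 depend on the added 1. Leaving out a WT pair leaves 1 WT pair, which the fit matches exactly. The spread then comes from the KO pairs alone, so only sizes are given and no call is read from them. Without the N2B27 pair Lhx1 had 0.96, Isl1 1.16, Lmx1b 1.23 and Lhx5 0.89. Without the KSR pair they had 2.94, 1.88, 2.29 and 2.56. With no filter on low genes 0 of the 3 passed (adjusted p = 0.124 to 0.154). With the pairs not blocked, Lmx1b did not pass (adjusted p = 0.0625) and Lhx5 did (0.0345), and Lhx5 also passed with 0.1 added in place of 1 (0.0424).

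In KO-labelled cells 0 of the 6 tested genes passed in limma, where 16.4% of all genes were called higher and 10.9% lower, and 1 of the 6 (Lhx5) had an unadjusted p under 0.05. Mean Lhx5 went from 0.0549 to 2.17 FPKM (1.49 ± 0.50 log2, n = 2 pairs; limma adjusted p = 0.0794), Lmx1b from 1.34 to 3.66 (1.04 ± 0.46; adjusted p = 0.155) and Lhx1 from 0 to 0.855 (0.87 ± 0.52; adjusted p = 0.262). Isl1 had 0.61 ± 0.41 (95% interval −0.42 to 1.64), Lmo1 0.63 ± 0.37 and Lhx9 0.78 ± 0.49. A call in WT and none in KO does not show that the responses differ. The test of that difference called 0 of the 6 genes, and 0 of all 15965 in limma (166 had an unadjusted p under 0.05). Its values, KO response minus WT response, were −0.91 ± 0.58 for Isl1 (95% interval −2.37 to 0.54) and −1.08 ± 0.73 for Lhx1 (−2.91 to 0.75), and −0.73 to −0.23 for the others, each with adjusted p = 1. That fit counts the contrast between media as spread. With the condition as a block instead, a fit chosen after the data were seen, the same differences had adjusted p = 0.917 to 0.981 and standard errors of 0.29 to 0.78. Leaving out 1 pair of 1 label kept the sign of Isl1 (−1.53 to −0.29) and Lhx1 (−2.07 to −0.09), but left that label 1 pair, so no call is read from it.

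The comparison of KO with WT labels in single conditions has 1 library per label, so it carries no test across replicates. In the deposited table the WT column of the N2B27 day 6 pair is named day 7 and the KO column day 6, so a difference of a day between these libraries cannot be told apart from the label. At N2B27 day 6 all 10 genes were lower in the KO library, where 46.0% of all tested genes were lower. Lhx1 had 0.507 FPKM in the KO library (95% counting interval 0.336 to 0.741, about 26.9 fragments) against 6.66 in the WT library (5.97 to 7.38, about 352 fragments), a 13.1-fold difference. Isl1 had 0.286 (0.138 to 0.530) against 2.94 (2.40 to 3.57), which is 10.2-fold. These 2 genes, whose proteins mark interneuron and motor neuron classes, had the widest gaps of the 10. Lhx5 had 1.07 (0.771 to 1.47) against 4.91 (4.23 to 5.68), or 4.59-fold, and Lmo1 4.22 (3.34 to 5.32) against 14.4 (12.7 to 16.3), or 3.42-fold. Lmx1b had 4.54 (4.04 to 5.09) against 10.4 (9.65 to 11.2), or 2.30-fold. Lhx3 and Lhx9 were 5.06-fold and 4.28-fold lower, on 3.29 and 6.38 fragments in the KO library, with intervals that did not meet those of the WT library. For Lhx3 the KO interval ended at 0.286 FPKM and the WT interval began at 0.324, a gap that a shorter transcript could close. The intervals of Lhx4, Isl2 and Lmx1a overlapped between the labels. On the scale of log2 of FPKM plus 1, 5 of the 6 tested genes were at least 2-fold lower, where 3.44% of all tested genes were, and 0 at least 2-fold higher (1.47% of all), and the median of the 6 was −1.54 against 0.02 over all genes tested. Lhx1 passed the filter only with the WT library of this pair, its high side, so the share is partly set by the filter. The 4 untested genes had −0.48 (Lhx3), −0.41 (Lmx1a), −0.20 (Lhx4) and −0.17 (Isl2) and are not in it.

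At KSR day 4 the direction was another one for most of these genes. The KO library was higher for 8 of the 10 and lower for Lhx4 and Lmo1, where 49.1% of all tested genes were higher. Lhx5 had 3.27 FPKM in the KO library (2.69 to 3.92) against 1.34 in the WT library (0.987 to 1.76), or 2.44-fold higher. Isl1 was 1.43-fold, Lhx1 1.23-fold and Lmx1b 1.22-fold higher, with counting intervals that overlapped between the labels. Of the 6 tested genes 0 were at least 2-fold higher or lower after adding 1, where 0.77% and 0.658% of all genes were, and their median was 0.18 against 0.00. At day 0 of the KSR series the intervals of Lmx1b did not meet, at 2.06 FPKM in the KO library (1.71 to 2.46) against 0.393 in the WT library (0.254 to 0.590). Lmo1 was lower there, at 0.669 (0.346 to 1.24) in KO against 1.88 (1.25 to 2.64) in WT, a gap that a shorter transcript could close. Lmx1b was the only tested member at least 2-fold higher at KSR day 0, where 0.883% of all genes were. At N2B27 day 0 Lmx1b lay lower under the KO label, at 0.626 (0.456 to 0.842) against 1.33 (1.07 to 1.64).

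**Figure D2:**
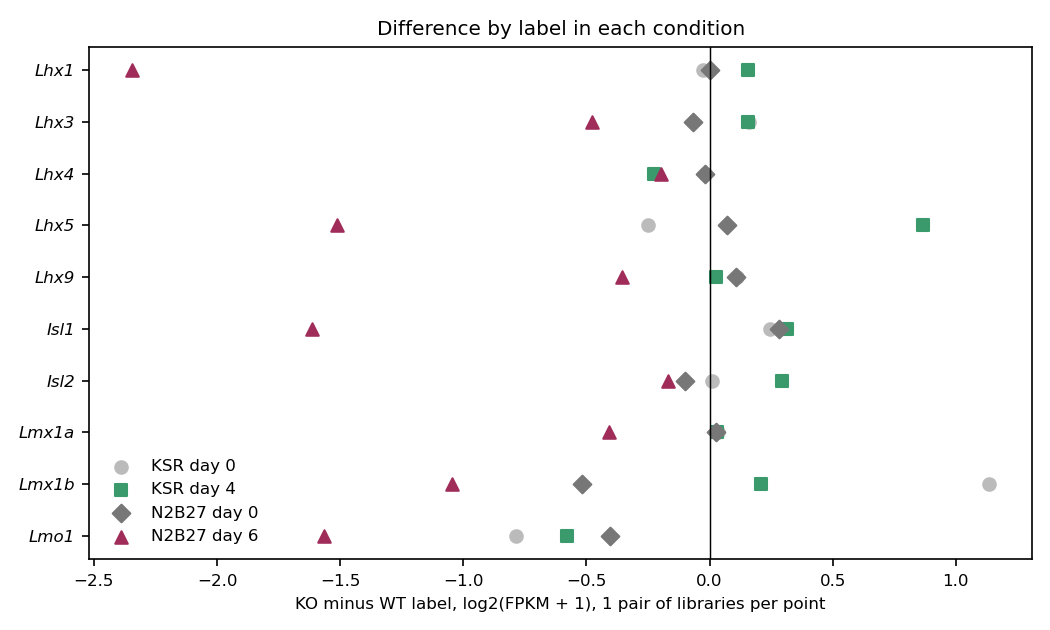
Difference between labels, KO minus WT, in log2 of FPKM plus 1 for each of the 10 genes, with 1 pair of libraries per point. Triangles (N2B27 day 6) lie left of 0 for all 10 genes, as far as −2.34 for Lhx1, whereas squares (KSR day 4) lie right of 0 for 8 of them, up to 0.87 for Lhx5.

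Over the 4 conditions together, with the condition as a block, 0 of the 6 genes passed between labels in limma, as against 0.00626% of all genes called lower, and 1 of the 6, Lmo1, had an unadjusted p under 0.05. Mean Lmo1 was 5.72 FPKM for WT and 2.25 for KO (−0.83 ± 0.21 log2, n = 4 pairs, lower in 4 of 4; 95% interval −1.33 to −0.34; limma adjusted p = 0.945). Without the N2B27 day 6 pair it had −0.59. The others had −0.55 ± 0.41 (Lhx1) to −0.03 ± 0.15 (Lhx9), with adjusted p = 0.945 to 0.986, and each of these 5 lay at or above 0.04 without the N2B27 day 6 pair. In the differentiated pairs (n = 2), with the spread taken from all 8 libraries, day 0 included, again 0 of 6 passed. Of all genes 0% were called lower, and 1 of the 6, Lmo1, had an unadjusted p under 0.05. There Lhx1 had −1.10 ± 0.55 and Lmo1 −1.07 ± 0.29 (both adjusted p = 0.980).

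Other genes of neurons moved with the members between the libraries of N2B27 day 6. The neuron markers Elavl3, Elavl4, Dcx, Map2, Gap43 and Stmn2, fixed as a list, summed to 298 FPKM in the WT and 88.6 in the KO library, 29.7% of the WT sum, with 6 of 6 lower, and without Stmn2, which was already high at day 0, 29.8%. The 10 LIM genes had 27.8% of their WT sum, the 20 proneural and early neuron genes 30.6% (20 of 20 lower) and the 14 motor neuron genes 24.9% (13 of 14 lower). Neural progenitor markers kept 75.7% (4 of 6 lower) and the 6 LIM cofactors 107.4% (3 of 6 lower). Markers of some other cell types were lower there too, but not all. The endoderm markers Sox17, Foxa1 and Pdx1 had 37.3% of the WT sum (57.8 FPKM in WT, of which Sox17 gave 56.9, 3 of 3 lower), and the stem cell markers 30.4% (49.9 FPKM in WT, 6 of 6 lower). Node and intermediate mesoderm markers had 52.9% (5.43 FPKM in WT, 4 of 5 lower). The heart markers Nkx2-5, Myl7 and Tnnt2 had 136% (1.68 FPKM in WT, 1 of 3 lower), and the pituitary markers were at 0 in both libraries. At KSR day 4 the neuron markers had 95.8% of the WT sum (131 FPKM, 2 of 6 lower), and without Stmn2 111% (1 of 5 lower). The LIM genes had 117.6% and the progenitor markers 81.3% (6 of 6 lower). In bulk RNA, fewer cells of a type and less RNA per cell cannot be told apart, and the part of cell composition in the lower LIM genes was not tested.

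**Figure D3:**
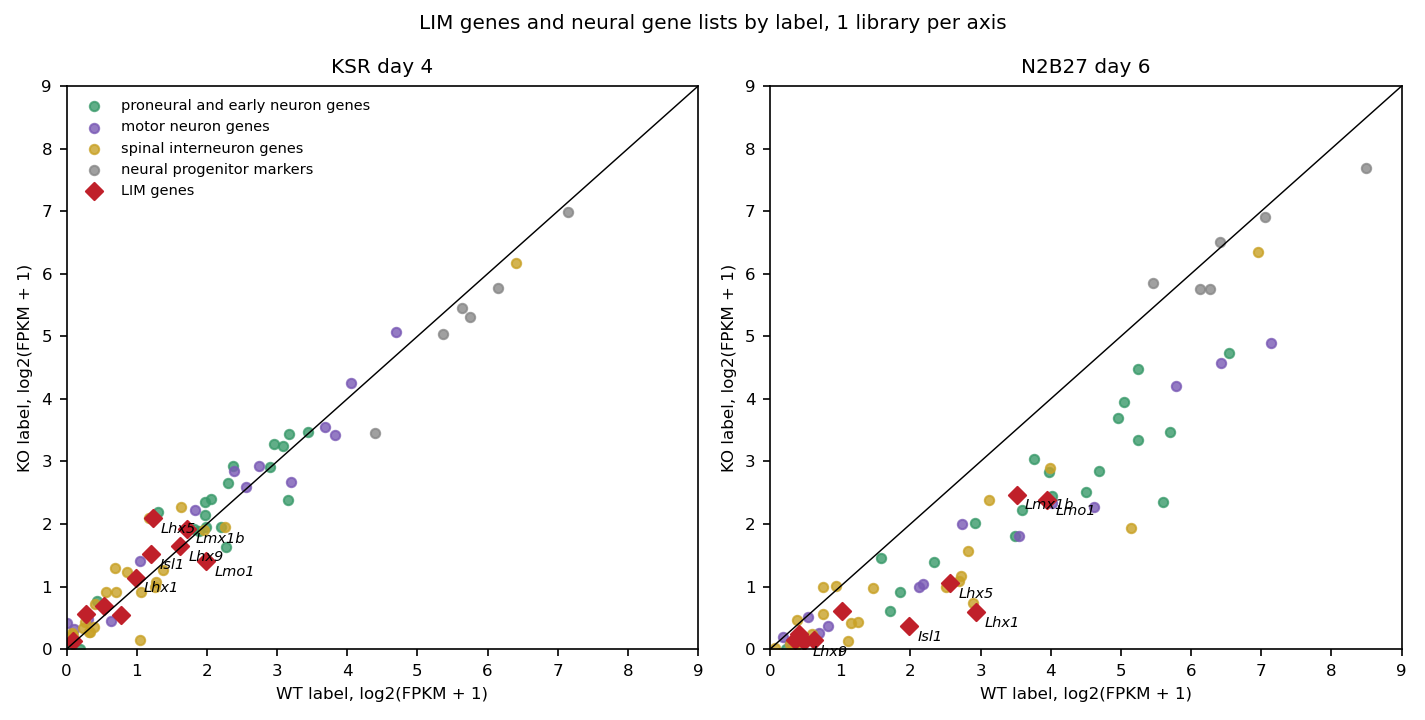
Level in the KO library against the WT library (log2 of FPKM plus 1) at KSR day 4 on the left and N2B27 day 6 on the right, for the 10 LIM genes (red diamonds) and for the gene lists named in the legend, with the line of equality. At KSR day 4 the points follow the line, and at N2B27 day 6 the LIM genes (27.8% of the WT sum) and the proneural genes (30.6%) lie below it while progenitor markers (75.7%) lie closer to it.

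The differentiated conditions differed in which LIM genes they expressed. Medium and day differ together here (N2B27 at day 6 against KSR at day 4), and the labels stood as the 2 replicates. Lhx9 was lower and Lmo1 higher in N2B27: Lhx9 averaged 2.09 FPKM at KSR day 4 and 0.247 at N2B27 day 6 (−1.32 ± 0.21 log2, n = 2 pairs; limma adjusted p = 0.0157), and Lmo1 2.30 and 9.32 (1.47 ± 0.30; limma adjusted p = 0.0300). Of all genes 4.78% were called lower and 5.02% higher. Lhx9 reached 1 FPKM in the KSR day 4 libraries only, so the filter admitted it through its high group. Lmx1b had 2.53 and 7.48 FPKM, higher in N2B27 under both labels (1.17 ± 0.48; adjusted p = 0.166), and did not pass. The direction of Lhx1, Lhx5 and Isl1 depended on the label. Between KSR and N2B27, Lhx1 went from 0.979 to 6.66 FPKM under the WT label and from 1.20 to 0.507 under the KO label. Their fitted differences were 0.70 ± 0.59, 0.15 ± 0.50 and −0.19 ± 0.48, with adjusted p = 0.478 to 0.887. Without the pair of 1 label the contrast rests on 1 library per condition, so no call is read from it. Lhx9 had −1.51 without the WT pair and −1.13 without the KO pair, and Lmo1 0.98 and 1.96. With an added 0.1 in place of 1 the call of Lhx9 was lost (adjusted p = 0.0555), as was that of Lmo1 with no filter (0.120) or with labels unpaired (0.102).

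Genes with which these LIM factors share regions of the neural tube were read from a list of 15 roof plate and midbrain dopamine genes. Of the 12 tested, 3 rose from KSR day 4 to N2B27 day 6 and 0 fell (median 0.09, over all genes −0.00, with 5.02% called higher and 4.78% lower). They were Msx1, a roof plate homeobox gene, at 0.804 and 0.709 FPKM (WT, KO) in KSR and 33.7 and 32.2 in N2B27 (4.27 log2), Wnt1, a signal of the dorsal midline, at 0.246 and 0.591 against 5.63 and 12.0 (2.72), and Msx2 (2.15). At N2B27 day 6 the 15 genes had 84.1% of the WT sum in the KO library, with 10 of 15 lower. Wnt1 and Gdf7, both made by the roof plate, were higher there, at 12.0 and 2.73 FPKM against 5.63 and 1.22, and were picked out after their values were seen. In differentiation 3 of the 12 rose and 1 fell in WT, and 4 rose and 1 fell in KO. The shares over all genes were 17% higher and 13.2% lower in WT, and 16.4% and 10.9% in KO. With 12 genes these counts lie near those shares. Foxa2, a factor of the floor plate and of endoderm, rose by 4.42 and 3.42.

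Of 6 other LIM homeobox and LIM-only genes 4 were tested. From these, 2 fell from KSR to N2B27 and 0 rose (median −0.78), where 4.78% of all genes were called lower and 5.02% higher. Lhx2, a forebrain and eye factor that acts beside Lhx9 in dorsal commissural neurons, had 34.1 FPKM in the WT and 22.8 in the KO library at KSR day 4 and 2.47 and 0.802 at N2B27 day 6 (−3.53 log2; limma adjusted p = 0.00444), and Lmo3 fell by 0.94. At 34.1 FPKM Lhx2 stood above every member in any library. In differentiation Lmo4, Lmo3 and Lmo2 rose in both labels, by 3.61, 2.35 and 1.96 in WT and 3.64, 2.32 and 1.95 in KO, with medians of 2.45 and 2.13 against 0.03 and 0.08 over all genes. The shares of all genes called higher were 17% in WT and 16.4% in KO. Lhx6 and Lhx8, genes of ventral forebrain neurons, stayed at or below 1.30 FPKM in every library and were not tested.

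The cofactors that LIM proteins need were present at far higher levels than the LIM genes. Ldb1, the shared adaptor, had 100.2 to 138.8 FPKM in the 8 libraries and did not pass in any comparison. Of the 6 cofactor genes 3 rose and 1 fell in WT, and the same held in KO (medians 1.15 and 1.18). The shares over all genes were 17% and 13.2% in WT, and 16.4% and 10.9% in KO. Ssbp2 and Ssbp3, whose proteins stabilise Ldb complexes, rose by 4.92 and 2.06 in WT and by 4.68 and 2.08 in KO, Ldb2 by 1.96 and 2.36, and Ssbp4 fell by 2.12 and 2.01. Between media 0 of the 6 passed in limma (median 0.15), where 5.02% of all genes were called higher and 4.78% lower. Rlim, a ubiquitin ligase that acts on LIM cofactors, had 13.1 to 18.9 FPKM.

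Upstream and downstream genes of the neuronal programme gave the setting. Over all genes tested, 17% rose and 13.2% fell in WT, and 16.4% and 10.9% in KO. From KSR to N2B27, 5.02% rose and 4.78% fell. Genes under 1 FPKM at day 0, here and in the other lists, could enter these tests only through differentiated libraries. Of 20 proneural and early neuron genes 18 were tested: 16 rose and 0 fell in WT, 15 and 0 in KO, and 5 rose and 1 fell from KSR to N2B27 (medians 3.11, 2.34 and 1.27). Neurog2, a proneural factor upstream of several LIM genes, had 3.85 and 2.09 FPKM at KSR day 4 and 47.3 and 4.09 at N2B27 day 6 (WT, KO). At least 2-fold lower in the KO library of N2B27 day 6 were 12 of the 18, and 3.44% of all genes tested. Of 14 motor neuron genes 10 were tested: 8 rose in WT and 5 in KO, 0 fell in either, and 1, Olig2, a motor neuron progenitor factor, fell from KSR to N2B27 (−2.09; medians 1.86, 1.60 and 0.47). The defining genes of spinal motor neurons were near 0: Mnx1 had at most 0.728 FPKM and Chat at most 0.619 in any library, while the transporter gene Slc18a3 reached 3.37 FPKM in the WT library of N2B27 day 6. Of the 10 tested 8 were at least 2-fold lower in the KO library there (3.44% of all genes). Of 22 spinal interneuron genes 10 were tested: 4 rose and 2 fell in WT, 1 and 2 in KO, and 1 rose between media (medians 1.17, 0.57 and 0.63). That was Tlx3, a factor of dorsal excitatory neurons that is found with Lmx1b in the dorsal horn, at 0.308 and 0.274 FPKM in KSR day 4 and 14.8 and 6.41 in N2B27 day 6 (3.07). Sox21 rose in WT and KO (3.44 and 2.78), and Foxd3, also a stem cell gene, fell (−3.37 and −3.12). Of the 10, 6 were at least 2-fold lower in the KO library of N2B27 day 6 (3.44% of all genes). The 1 interneuron gene called higher and the 2 called lower in KO differentiation lie near the shares over all genes.

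**Figure D4:**
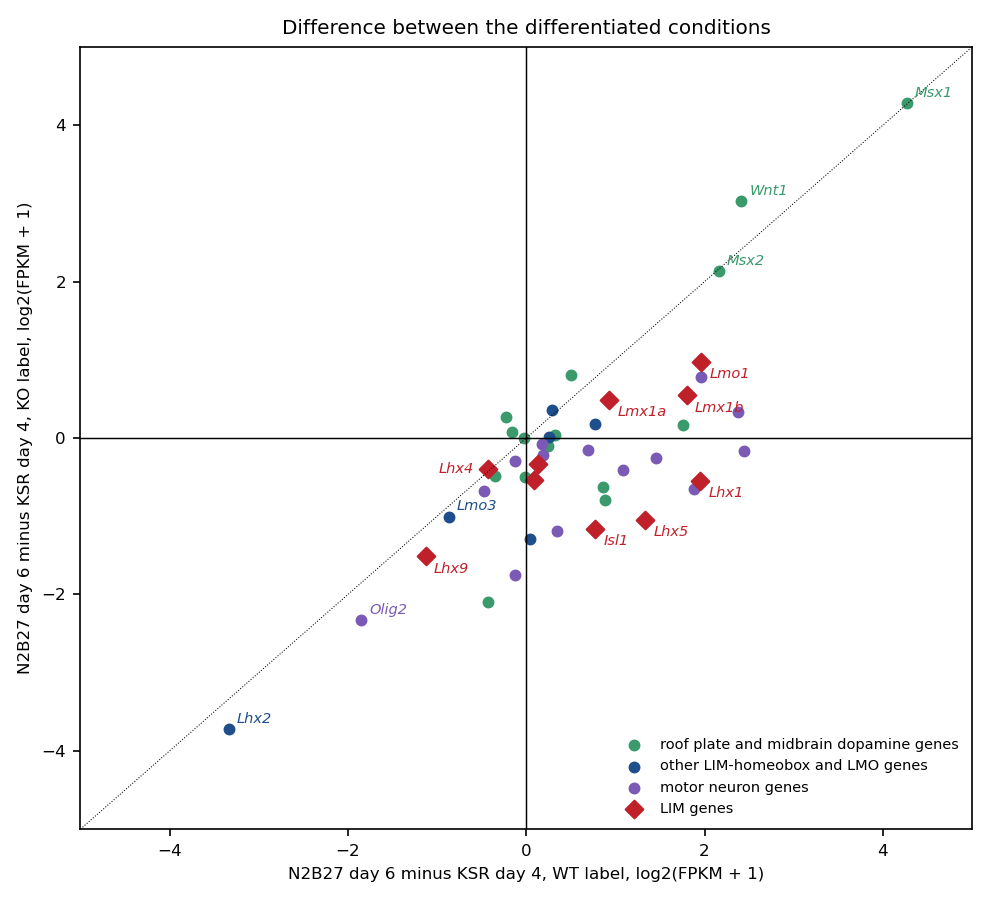
Difference N2B27 day 6 minus KSR day 4 in log2 of FPKM plus 1, WT-labelled pair on the x axis and KO-labelled pair on the y axis, for the 10 LIM genes (red diamonds) and the lists in the legend, with the line of equality dotted. Msx1 and Wnt1 lie at the upper right and Lhx2, Olig2 and Lhx9 at the lower left under both labels, while Lhx1, Lhx5 and Isl1 lie above 0 in WT (1.95, 1.34 and 0.77) and below 0 in KO (−0.55, −1.04 and −1.16).

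The genes most alike to each member in their pattern over the 8 libraries were named by Pearson r of log2 of FPKM plus 1, among 12266 tested genes outside the members with at least 5 FPKM in some library, as a description. Closest to Lhx9 were 1110038B12Rik (r = 0.997), the forebrain factor gene Fezf2 (0.992) and Lhx2 (0.985), all highest at KSR day 4. Closest to Lhx1 were Entpd1, Pcp4 and Rmst (0.994 each), and to Lhx5 Sez6l2 (0.989), Parp6 and Plac8 (both 0.977). Lmx1a was closest to Creb3 (0.991), to the endoderm factor Gata4 (0.988) and to Prrxl1 (0.987), a homeobox gene of dorsal horn and sensory neurons. Isl1 was closest to Gm8784 (0.985), Zbtb2 and Gm24119, Lmx1b to Ccdc28b (0.991), Gm13363 and Cptp, and Lmo1 to Armc5 (0.967), Gm8515 and Zfand2a. Apart from those of Lhx9, each named gene had its highest level in the WT library of N2B27 day 6. The 8 points are 4 day 0 and 4 differentiated libraries, so a change shared between stages enters every r.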

How the data were processed

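Messenger RNA was sequenced in 8 libraries, 1 for each label and condition. Per the submitters' processing notes, STAR, Cufflinks and the mouse build mm10 were used, with versions and settings not given in the sources used here. The authors deposited a single table of FPKM values for all libraries, in which 55188 entries gave 55078 symbols after repeated symbols were averaged. All 8 columns were used, so 0 were left out. In 4 samples the title and the description disagree on the library. Titles and genotype labels were followed, and both KO columns of the KSR series were assigned to their group by column name. The WT N2B27 column is named day 7, while its title gives day 6. The unit is FPKM, so no count test was used.

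Genes with at least 1 FPKM in 2 or more libraries (15965) entered limma 3.58.1 as log2(FPKM + 1) (R 4.3.3; empirical Bayes with a mean trend, Benjamini-Hochberg adjustment, threshold 0.05). Differentiation was tested within each label, with KSR and N2B27 pairs as replicates, the label over 4 conditions with the condition as a block, and the media with the label as a block. Each main fit used all 8 libraries, so its spread is shared by both labels. No group had repeat libraries, so p-values measure the spread between pairs from different media or labels. The fits were tested on simulated data. Tables used Python 3.11.15, pandas 2.3.3 and scipy 1.17.1. Fragments were estimated from the FPKM steps of 6720 genes with 1 transcript of at least 1500 bases, of whose low values 89.5 to 91.7% lay within 0.2 of a whole step. Genes and lists were chosen with earlier results of these data known. Named from each list were at most 4 called genes by size of change, and for each member that reached 1 FPKM in a library the 3 genes of highest Pearson r. Coordinates are those of GENCODE M21 and promoters those of RefSeq. Some genes of the lists are not reported here by name.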

Additional observations from a re-analysis of the deposited data

Results flagged for a closer look

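For 5 genes the label difference had opposite signs in the differentiated conditions, with 1 pair of libraries each, and this difference was not tested. KO minus WT in log2 of FPKM plus 1 was −2.34 at N2B27 day 6 and 0.15 at KSR day 4 for Lhx1, −1.51 and 0.87 for Lhx5, and −1.61 and 0.32 for Isl1. For Lmx1b it was −1.04 and 0.21. For Lhx9 it was −0.36 and 0.03, the latter within counting error.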

How the results depend on the processing

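The counts of called genes were 4829 (WT differentiation), 4362 (KO differentiation), 1 (label over 4 conditions), 1 (label in differentiated cells), 0 (difference between labels) and 1565 (media). With no filter they were 1675, 1107, 0, 0, 0 and 451, and the called members went from 3 to 0 in WT and from 2 to 1 between media. With 0.1 added in place of 1, 4 members passed in WT (Lhx5 besides the 3) and 1 in KO (Lhx5), 1 between media, and 2 genes between labels over 4 conditions. There Isl1, Lhx9 and Lmx1b turned to 0.0137, 0.0829 and 0.0628. With no block 1 member passed between media, and in WT Lmx1b was lost and Lhx5 gained, and with the condition as a block 1 gene passed in the difference between labels. Leaving out a pair gave 1409 to 2369 genes in WT, 1744 to 2003 in KO, 0 to 1 between labels over 4 conditions, 0 to 0 in differentiated cells and 0 to 0 between media, with 0 to 2 members in WT and 0 to 0 between media. Under it Isl1 in KO ran from −0.011 to 1.23. Between labels over 4 conditions the ranges were −0.36 to 0.28 (Isl1), −0.79 to 0.042 (Lhx1), −0.57 to 0.23 (Lhx5), −0.0751 to 0.0811 (Lhx9) and −0.45 to 0.27 (Lmx1b). In differentiated cells they were −1.61 to 0.32 (Isl1), −2.34 to 0.15 (Lhx1), −1.51 to 0.87 (Lhx5), −0.36 to 0.0263 (Lhx9) and −1.04 to 0.21 (Lmx1b). Between media they were −1.16 to 0.77 (Isl1), −0.55 to 1.95 (Lhx1) and −1.04 to 1.34 (Lhx5). The cause of these changes was not tested. Median scaling and a fit with no trend changed no call of a member. The difference between labels was also refitted without each single pair of a label (added after seeing the data), which left that label 1 pair. This difference had ranges of −1.07 to 0.60 (Lhx5), −1.03 to 0.48 (Lhx9), −1.12 to 0.17 (Lmo1) and −1.46 to 0.00297 (Lmx1b). Without both pairs of a medium it had no residual degrees of freedom and no test, and a count test was not run. Depth limits Lhx3, Lhx4, Isl2 and Lmx1a most.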

Other observations

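Genes of other tissues that use LIM factors differed between the induction conditions, where 5.02% of all genes were called higher and 4.78% lower. Of 6 endoderm and pancreas genes 4 were tested, and 3 rose from KSR day 4 to N2B27 day 6 (median 2.56), Sox17 by 3.78, Gata4 by 2.90 and Gata6 by 2.22. All 4 were at least 2-fold lower in the KO library of N2B27 day 6 (3.44% of all genes). In differentiation 0 of the 4 passed under either label in limma, with 2 (WT) and 0 (KO) at an unadjusted p under 0.05. The shares of all genes called higher were 17% in WT and 16.4% in KO. Of 8 neural crest and sensory neuron genes 6 were tested, and 3 rose between media (median 0.73), Tfap2b by 2.83, Tfap2a by 2.80 and Pax3 by 1.75. Pax3 also rose by 4.48 in WT differentiation.

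Among 9 pituitary and placode genes 5 were tested, and Pitx1 rose between media (2.05). Of 8 node and intermediate mesoderm genes 5 were tested, and Wt1 (−3.94) and Cer1 (−1.17) fell between media. Wt1 was also the 1 tested of 4 gonad genes. Of 7 heart and pharynx genes 3 were tested, and 0 passed between media in limma, with 1 at an unadjusted p under 0.05.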
